A study of Rattus norvegicus with 9 samples.

Results

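The microglia and macrophage genes described here are 38 genes chosen by name, and 37 of the 38 were listed by name in an expression table of rat spinal cord with 34890 loci, each at 1 locus. They were set in 3 subgroups, which are 9 homeostatic genes, 15 activation genes and 14 leukocyte genes, of which 13 were listed. The subgroup names are labels for the genes and do not measure the state of the cells. Dock2, a guanine exchange factor of leukocytes, was not listed by name. The reference names AABR07029272.1 as another name of Dock2, and that locus stood between 0.55 and 1.08 TPM. It was not counted among the 37.

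RNA was sequenced from the L3-L6 spinal cord, taken on the operated side, of male Sprague Dawley rats whose genotype the labels give as WT. The 3 groups held 3 rats each. JA rats were sham-operated and given normal saline by mouth, SNI rats had a spared nerve injury and saline, and PLM rats had the same injury and a combination of paeoniflorin and liquiritin. In the injury the common peroneal and tibial nerves were ligated and cut and the sural nerve was left, and in the sham operation the nerves were exposed only. Dosing ran for 21 days. The labels give paeoniflorin as 20.65 mg/ml in all 3 PLM samples and liquiritin as 3.98, 3.99 and 3.100 mg/ml in replicates 1, 2 and 3, where the methods state 3.98 mg/ml. No injured rats given either compound alone and no sham rats given the drugs were among the samples. No age is given in the labels. The values are TPM, a measure of transcript abundance divided by gene length and brought to the same total in each sample, so that levels of different genes can be set side by side. In bulk tissue, fewer microglia and less RNA per microglia cannot be told apart.

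Microglia are the resident macrophages of the spinal cord. In the resting state they survey the tissue and express a homeostatic set of receptors for nucleotides, chemokines and growth factors. After injury to a peripheral nerve, microglia of the dorsal horn are known to react to signals from damaged sensory neurons, through purine receptors, fractalkine and the CSF1 receptor, and to turn up genes of phagocytosis, innate sensing and antigen handling. IBA-1, the protein of Aif1, is the usual stain for these cells, and the study used it. It reported more IBA-1 in the dorsal horn of SNI than of JA rats, and a restored level in PLM. The values below are RNA of the cord on the operated side and not protein of the dorsal horn. Most of the leukocyte genes are shared by microglia, macrophages and white cells of the blood.

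PU.1, encoded by Spi1, and IRF8 are the transcription factors best known for setting macrophage and microglia genes, so the promoters were searched for the letters these factors favour. RefSeq promoter windows (build GRCr8, 300 bases, from 250 before to 50 after the gene start) were matched by symbol for 25 of the 38 genes. The windows of Ctss, Cybb and Cd53 are shown as examples of windows with matches, chosen after the matches were seen, and that of Olfml3 because the gene had the smallest adjusted p of the members in PLM against SNI as deposited and held none. Each is printed 5′ to 3′ along its gene, with matches in capitals. Ctss lies at chr2:185775146-185775445 on the plus strand, Cybb at chrX:16065016-16065315, Cd53 at chr2:197087847-197088146 and Olfml3 at chr2:193935445-193935744, the last 3 on the minus strand.
Ctss: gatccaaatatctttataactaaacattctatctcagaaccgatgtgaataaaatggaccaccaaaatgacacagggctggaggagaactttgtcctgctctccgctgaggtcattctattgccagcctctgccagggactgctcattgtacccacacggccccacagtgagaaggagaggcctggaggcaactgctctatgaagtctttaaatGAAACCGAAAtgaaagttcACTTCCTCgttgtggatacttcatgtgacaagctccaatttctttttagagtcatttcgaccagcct
Cybb: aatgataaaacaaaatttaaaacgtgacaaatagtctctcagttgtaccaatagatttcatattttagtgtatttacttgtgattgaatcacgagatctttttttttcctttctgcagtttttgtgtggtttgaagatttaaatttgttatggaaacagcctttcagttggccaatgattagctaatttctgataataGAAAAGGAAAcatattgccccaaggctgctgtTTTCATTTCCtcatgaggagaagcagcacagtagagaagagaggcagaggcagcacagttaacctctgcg
Cd53: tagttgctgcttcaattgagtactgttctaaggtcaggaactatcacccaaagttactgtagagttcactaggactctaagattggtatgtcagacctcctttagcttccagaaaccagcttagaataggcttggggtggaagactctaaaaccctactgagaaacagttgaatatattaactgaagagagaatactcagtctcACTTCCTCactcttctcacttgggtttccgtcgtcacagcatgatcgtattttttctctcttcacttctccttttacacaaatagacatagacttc
Olfml3: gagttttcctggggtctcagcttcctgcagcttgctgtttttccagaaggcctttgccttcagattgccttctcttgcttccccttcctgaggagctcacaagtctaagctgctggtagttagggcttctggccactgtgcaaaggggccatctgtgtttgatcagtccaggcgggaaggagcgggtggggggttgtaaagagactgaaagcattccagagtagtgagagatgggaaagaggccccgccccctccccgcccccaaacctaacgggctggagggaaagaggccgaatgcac

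Both strands were searched for GAGGAAGT (a PU.1 core), a PU.1 and IRF composite (GGAA, any 2 bases, GAAA) and an IRF element (GAAA, any 2 bases, GAAA), and matches of the last 2 can overlap each other. The PU.1 core was in 4 of 25 windows (16%: Cd37, Cd53, Ctss and Inpp5d), against 2.42% of all 33469 windows. The composite was in 2 of 25 (8%: Cd68 and Cybb), against 2.94% of all. The IRF element was in 4 of 25 (16%: Apbb1ip, Ctss, Cybb and Ncf1), against 3.92% of all. None of the 6 homeostatic windows held any of the 3. A match is a description of letters and not a bound site.

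Values that bear on every comparison below concern the whole tissue. The 13 mitochondrial protein genes took 25.3 to 32.8% of TPM in JA, 23.7 to 26.1% in SNI and 31.3 to 32.8% in PLM, and SNI and PLM did not overlap. The median locus stood at 3.30 to 3.46 in JA, 3.47 to 3.53 in SNI and 3.18 to 3.30 in PLM on the log2(TPM + 1) scale. Because TPM has a fixed total, values were also examined after centring each sample on the median of its loci. Summed TPM of red blood cell markers ran from 3395 to 5831 in SNI and from 6416 to 9022 in PLM, that of endothelium markers from 350.4 to 377.4 and from 377.0 to 437.1, and that of astrocyte markers from 3796 to 4823 and from 2070 to 2514. Markers of meninges and fibroblasts summed to 148.0 to 329.9 in JA, 122.9 to 266.4 in SNI and 67.8 to 118.3 in PLM. In JA the sums were 4393 to 9609 for red blood cell, 404.8 to 516.1 for endothelium and 3133 to 4692 for astrocyte markers. Neuron markers summed to 2429 to 4480 in JA, 4488 to 5531 in SNI and 3966 to 4501 in PLM. Oligodendrocyte markers summed to 48961 to 56424 in JA, 46250 to 48485 in SNI and 50005 to 51077 in PLM. Schwann cell markers varied most inside groups, from 125.5 to 7897 in JA, 579.7 to 4495 in SNI and 276.9 to 3308 in PLM. Of 13 lymphocyte and granulocyte markers 10 averaged under 1 TPM, and of 10 markers of border macrophages and monocytes 8 were listed and 4 (Cd163, F13a1, Mrc1 and Ms4a7) averaged under 1 TPM. No listed marker was at 0 in every sample. The part of these shifts in the results below was not tested.

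The defining microglia genes were all detected. Ctss, a lysosomal protease that can release fractalkine from neurons, had the highest level of the 37 genes, from 190.2 to 236.2 TPM over the 9 samples. It was followed by the Fc receptor chain Fcer1g (71.8 to 93.5 TPM), Aif1 (60.2 to 90.2 TPM) and Selplg, a ligand of selectins (51.6 to 73.6 TPM), whose ranges overlapped one another. The adaptor Tyrobp (41.0 to 55.7 TPM) and Csf1r, the receptor that microglia need to survive (42.1 to 56.2 TPM), came next and also overlapped. Levels of the remaining homeostatic genes were lower: the fractalkine receptor Cx3cr1 at 14.4 to 22.3 TPM, Tmem119, a membrane protein used as a microglia marker, at 10.9 to 17.5, the ADP receptor P2ry12 at 10.6 to 17.3 and its relative P2ry13 at 2.60 to 4.93. At the low end stood Runx1 (0.69 to 1.57 TPM), a transcription factor of blood lineages, and Ptprc (0.90 to 1.42 TPM), the gene of CD45. All 37 genes averaged 1 TPM or more in the 6 samples of each comparison and were tested.

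**Figure D1:**
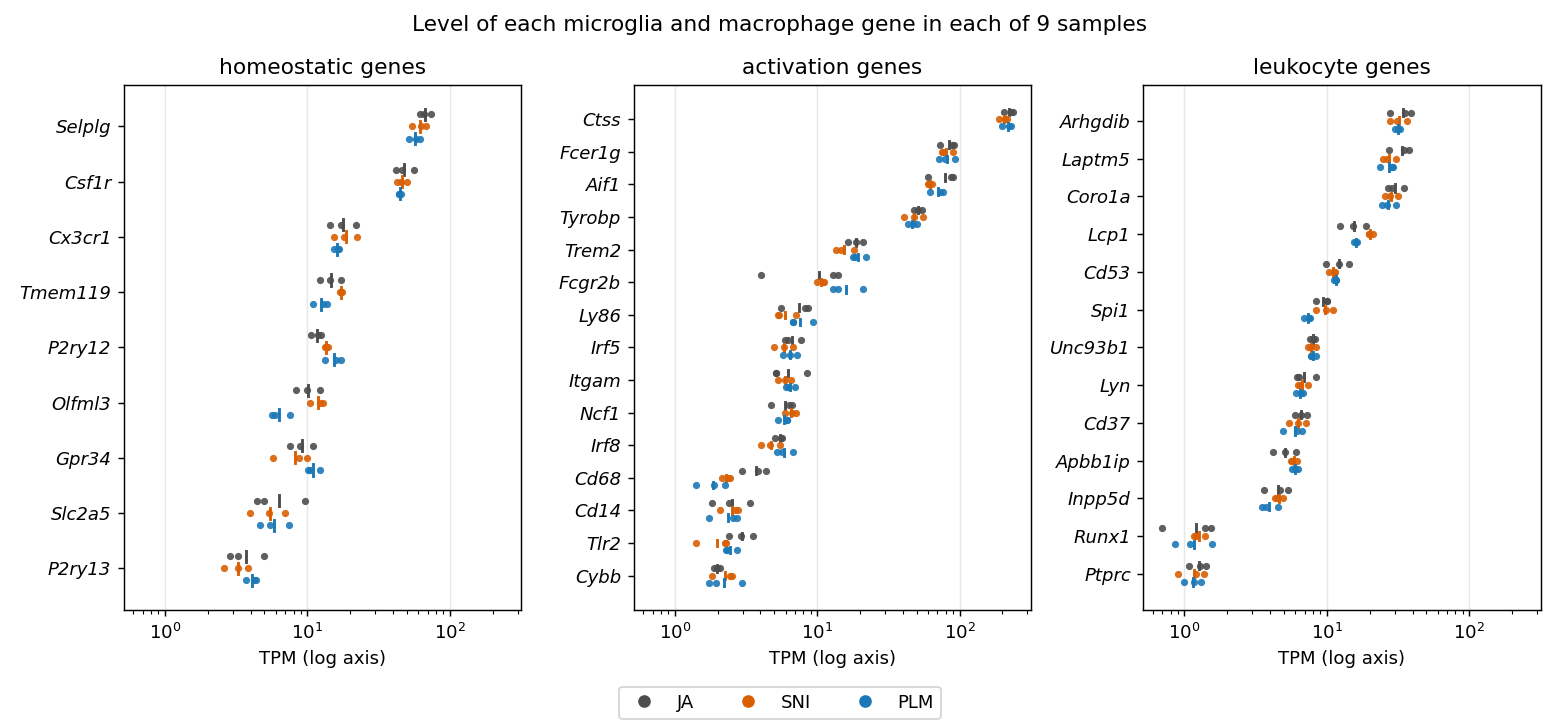
TPM on a log axis of the 37 genes, ordered by mean level in each subgroup, with 1 point for each of the 9 samples (JA grey, SNI orange, PLM blue) and a vertical tick at each group's mean (n = 3). Ctss is highest at 190.2 to 236.2 TPM, Runx1 and Ptprc lowest, and most genes overlap between all 3 groups.

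Spread within a group differed between groups. The coefficient of variation over 3 rats had a median over the 37 genes of 17.2% in JA, 10.9% in SNI and 11.1% in PLM. In JA it reached 53.1% for the inhibitory Fc receptor Fcgr2b, which was at 4.04 TPM in replicate 1 and at 14.06 and 12.97 TPM in replicates 2 and 3. Among the 9 samples JA replicate 2 was the highest for 12 of the 37 genes and the lowest for 0. The mean of log2(TPM + 1) over the 37 genes was 3.75 in that sample, against 3.53 and 3.56 in the other JA rats, 3.59, 3.56 and 3.53 in SNI and 3.60, 3.52 and 3.56 in PLM. Without JA replicate 2 this mean ran from 3.52 to 3.60.

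The first comparison asks what nerve injury did to these genes in rats given saline. No microglia gene passed the test in SNI against JA in either direction. limma on log2(TPM + 1), with Benjamini-Hochberg adjustment over 15557 loci and a threshold of 0.05, called 0 of the 37 genes higher and 0 lower, and 0% of all loci. At an unadjusted p under 0.05, 1 gene was higher (Lcp1, where 6.11% of all loci were) and 1 lower (Cd68, where 0.99% were). At the thresholds the study used, an unadjusted p under 0.05 with an absolute log2 fold change above 1, 0 of 37 passed, against 0.688% of all loci. The 2 sets of 3 rats could not reach an exact permutation p under 0.10 for a single gene.

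Aif1 had 60.46, 90.16 and 86.42 TPM in the JA rats and 63.70, 61.49 and 60.23 TPM in the SNI rats (79.0 ± 16.2 against 61.8 ± 1.76, SD, n = 3). JA replicate 1 stood with the SNI samples and the other 2 JA samples stood above all of them, so the groups overlapped. The log2 fold change was -0.33 (SE 0.16, limma adjusted p = 0.614). The lysosomal glycoprotein Cd68 had 3.83, 2.97 and 4.41 TPM in JA and 2.14, 2.43 and 2.35 TPM in SNI. Every SNI value lay under every JA value, at a log2 fold change of -0.51 (SE 0.15, limma adjusted p = 0.614). Tlr2, a receptor for bacterial lipoproteins, showed the same order at low level, with 2.40, 3.56 and 2.91 TPM in JA and 2.24, 2.28 and 1.40 TPM in SNI (log2 fold change -0.42, SE 0.19, limma adjusted p = 0.614).

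Lcp1, an actin-bundling protein of leukocytes, had 18.71, 15.28 and 12.39 TPM in JA and 20.96, 19.61 and 19.62 TPM in SNI, with no overlap (log2 fold change 0.37, SE 0.15, limma adjusted p = 0.614). P2ry12 also did not overlap, with 10.61, 12.45 and 11.80 TPM in JA and 13.55, 13.86 and 13.31 TPM in SNI (0.21, SE 0.09, limma adjusted p = 0.614). These were the only members with every SNI value above every JA value, 2 of 37 (5.41%) against 12.1% of all loci. Cd68 and Tlr2 were the only ones with every SNI value below, 2 of 37 against 1.66% of all loci. Tmem119 was at 17.23, 14.52 and 12.21 TPM in JA and at 17.16, 16.90 and 17.52 TPM in SNI (log2 fold change 0.23, SE 0.13, limma adjusted p = 0.614), and JA replicate 1 reached the SNI level. Among the other leukocyte genes Laptm5, a lysosomal membrane protein, had the next smallest p, at 27.49, 35.05 and 37.93 TPM in JA and 26.33, 30.42 and 24.68 TPM in SNI (log2 fold change -0.29, SE 0.14, limma adjusted p = 0.614).

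As deposited, 13 of the 37 log2 fold changes were above 0 and 24 below, with a median of -0.07, while the median of all loci tested was 0.12. Below 0 were 64.9% of the members and 23.6% of all loci. The members' median was -0.13 without JA replicate 1 and -7.85e-05 without JA replicate 2. The medians of the subgroups were -0.05 for the homeostatic, -0.13 for the activation and -0.03 for the leukocyte genes. Of the homeostatic genes 4 of 9 were above 0, and of the activation genes 4 of 15. Tmem119, Olfml3, P2ry12 and Cx3cr1 held the positive side of the homeostatic genes, and Cd68, Tlr2, Aif1, Ly86 (a partner of a Toll-like receptor homologue) and the lipid receptor Trem2 the negative end of the activation genes. No difference between the subgroups was tested.

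**Figure D2:**
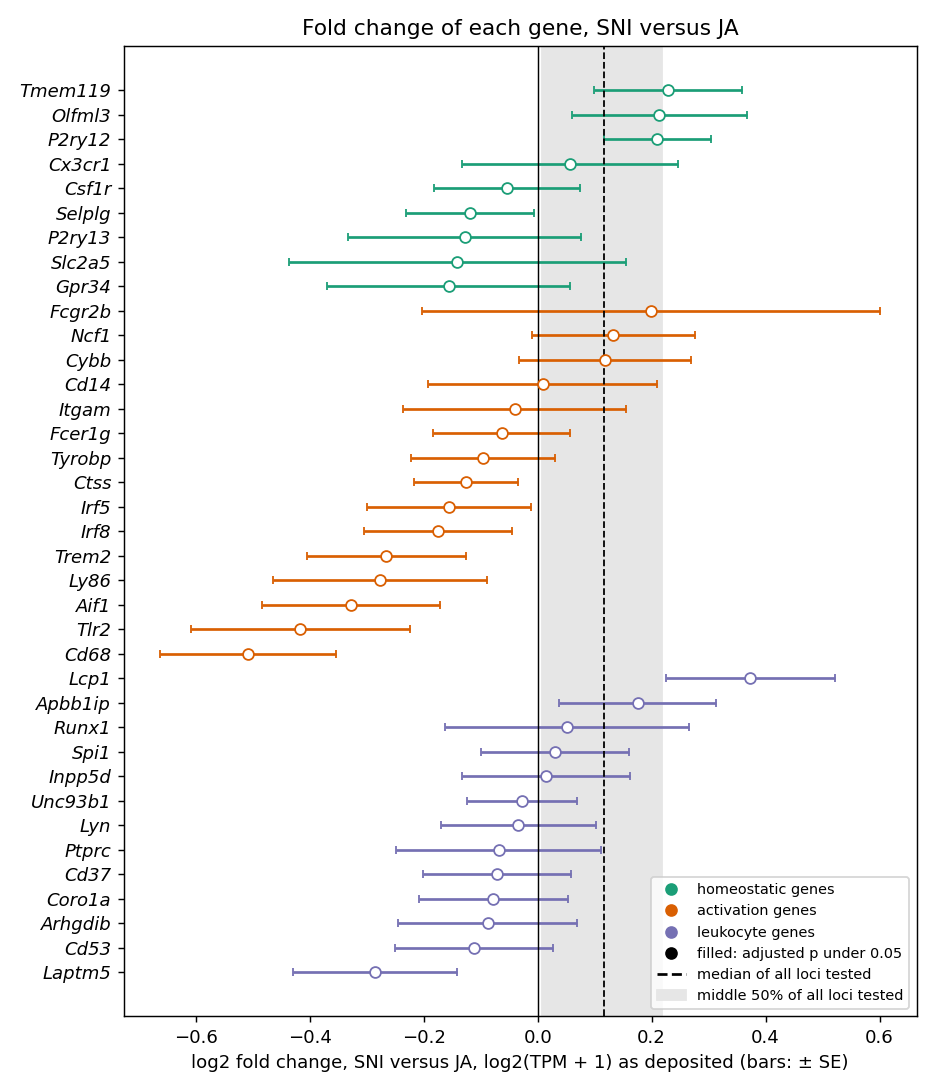
Log2 fold change of SNI against JA for each of the 37 genes on the log2(TPM + 1) scale as deposited, with bars of ± SE (3 rats in each group). Colours mark the subgroups, the dashed line the median of all loci tested (0.12) and the grey band their interquartile range; all symbols are open because 0 genes passed an adjusted p under 0.05.

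With each sample centred on its median locus, 7 members were above 0 and 30 below, and their median was -0.19 against -0.01 for all loci (-0.30 without JA replicate 1 and -0.12 without JA replicate 2). Below 0 were 81.1% of the members and 51.4% of all loci. The subgroup medians were -0.17 (homeostatic), -0.25 (activation) and -0.16 (leukocyte). limma again called 0 of 37, and 0% of all loci, at an adjusted p under 0.05. At an unadjusted p under 0.05, 5 members were lower, all activation genes (Cd68, Tlr2, Irf8, Trem2 and Aif1), against 3.13% of all loci, and 0 were higher, against 1.7%. The centred log2 fold change was -0.63 for Cd68, -0.54 for Tlr2, -0.30 for the interferon regulatory factor Irf8, -0.39 for Trem2 and -0.45 for Aif1, each at a limma adjusted p of 0.889. Every centred SNI value lay below every JA value for Cd68, Irf8, Selplg and Tlr2 (6.87% of all loci) and above for Lcp1 (4% of all loci). JA replicate 1 again stood with the SNI rats: the centred mean over the activation genes was 3.48 in it, 3.85 and 3.81 in JA replicates 2 and 3, and 3.45, 3.46 and 3.47 in SNI. The 8 oligodendrocyte markers had a median centred log2 fold change of -0.22 and the 6 endothelium markers one of -0.20. The median was -0.49 for red blood cell and -0.27 for meninges and fibroblast markers. For astrocyte, neuron and Schwann cell markers it was 0.36, 0.16 and 0.46. Their part in the members' values was not tested.

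The second comparison asks what the drug combination did in injured rats, and it uses the same 3 SNI samples. As deposited, 3 of the 37 genes were lower in PLM than in SNI and 0 were higher at an adjusted p under 0.05 (limma, 15474 loci tested). These were the homeostatic genes Olfml3 and Tmem119 and the leukocyte gene Lcp1. The 3 lower genes are 8.11% of the members, and of all loci 13.6% were lower and 0.246% higher. None of the 15 activation genes passed; 1 of them was higher at an unadjusted p under 0.05 (Fcgr2b).

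Olfml3, a secreted olfactomedin-like protein enriched in microglia, had 10.40, 12.34 and 12.94 TPM in SNI and 5.61, 5.88 and 7.53 TPM in PLM (11.9 ± 1.33 against 6.34 ± 1.04, SD, n = 3). Every PLM value lay below every SNI and every JA value, and the PLM mean was 0.533 of the SNI mean. The log2 fold change was -0.82 (SE 0.13, limma adjusted p = 0.0196). The summed meninges and fibroblast markers moved the same way in these samples, as given above; their part in the Olfml3 result was not tested. Tmem119 had 17.16, 16.90 and 17.52 TPM in SNI and 10.89, 12.90 and 13.85 TPM in PLM (17.2 ± 0.311 against 12.5 ± 1.51), or 0.730 of the SNI mean (log2 fold change -0.43, SE 0.10, limma adjusted p = 0.0379). Its PLM values overlapped those of JA. Lcp1 had 20.96, 19.61 and 19.62 TPM in SNI and 16.06, 16.28 and 15.60 TPM in PLM (20.1 ± 0.777 against 16.0 ± 0.347; log2 fold change -0.31, SE 0.06, limma adjusted p = 0.0318), and the PLM values lay inside the range of JA.

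**Figure D3:**
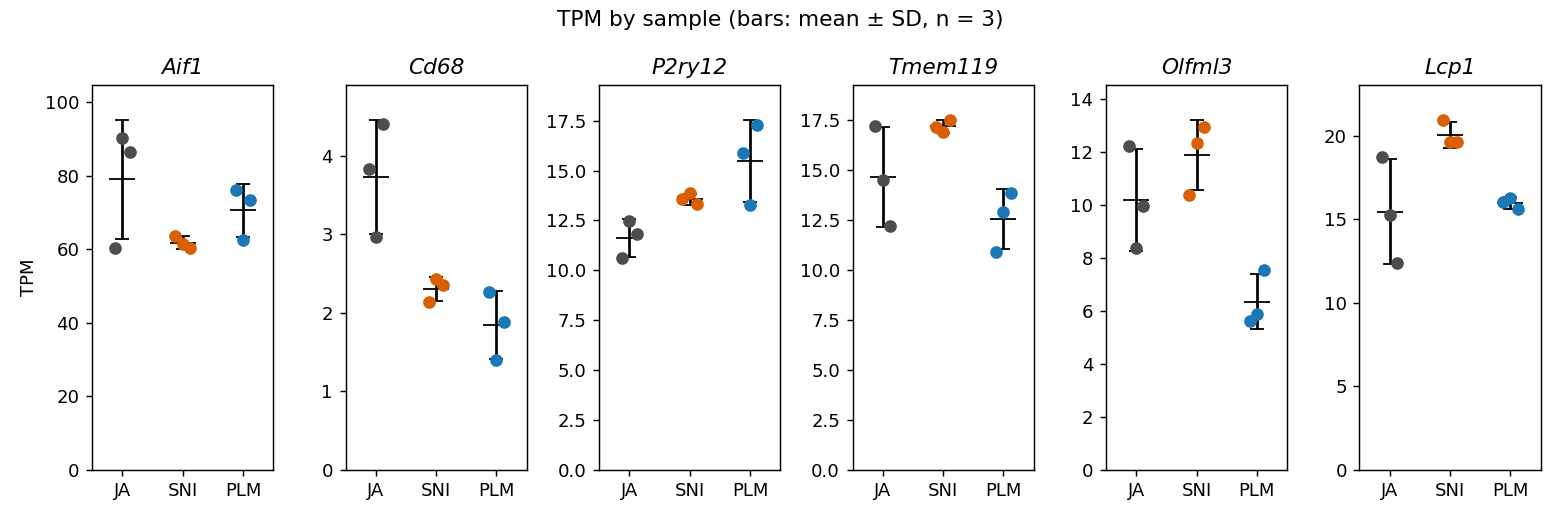
TPM of 6 genes in each of the 9 samples (points), with the mean and SD of each group (n = 3; each axis starts at 0). Olfml3, Tmem119 and Lcp1 are lower in PLM than in SNI without overlap, Cd68 is lower in SNI than in JA without overlap, and Aif1 overlaps between all groups.

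Aif1 had 76.13, 62.38 and 73.28 TPM in PLM (70.6 ± 7.26), against 61.8 ± 1.76 in SNI. PLM replicate 2 stood inside the SNI range and the other 2 above it (log2 fold change 0.18, SE 0.09, limma adjusted p = 0.167). Fcgr2b, the inhibitory Fc receptor, had 10.92, 10.06 and 11.17 TPM in SNI and 13.02, 20.95 and 14.03 TPM in PLM, without overlap (0.51, SE 0.17, limma adjusted p = 0.0886). PLM replicate 2 held the highest value of the 9 samples. Trem2 had 18.12, 13.51 and 14.71 TPM in SNI and 22.13, 18.32 and 17.75 TPM in PLM, where SNI replicate 1 lay within the PLM range (0.31, SE 0.13, limma adjusted p = 0.138).

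At an unadjusted p under 0.05, 4 members were lower (the 3 above and Spi1), against 35.8% of all loci, and 1 was higher, against 1.28%. Spi1 had 9.79, 10.97 and 8.32 TPM in SNI and 7.61, 6.87 and 7.47 TPM in PLM (log2 fold change -0.36, SE 0.11, limma adjusted p = 0.0728). All PLM values were below all SNI values for these 4 genes, 10.8% of the members against 41.9% of all loci. The reverse held for Fcgr2b and for Gpr34, a receptor of lysophospholipids with 10.01, 8.75 and 5.76 TPM in SNI and 10.13, 10.47 and 12.22 TPM in PLM, 5.41% of the members against 1.59% of all loci. At the thresholds the study used, 0 of 37 passed, against 1.65% of all loci.

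The members' fold changes lay around 0, while those of the table lay mostly below it. Of all loci 85.0% had a log2 fold change below 0, with a median of -0.21, whereas 19 of the 37 members were below 0 and 18 above, with a median of -0.0011. The medians were -0.04 for the homeostatic, 0.10 for the activation and -0.04 for the leukocyte genes. Relative to the median of all loci these were 0.17, 0.31 and 0.17. On this relative scale 32 of the 37 were above 0, and Olfml3 (-0.61), Tmem119 (-0.22), Spi1 (-0.15), Lcp1 (-0.10) and Cd68 (-0.02) were below. These are descriptions of genes chosen by name, and no test of the list was made.

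**Figure D4:**
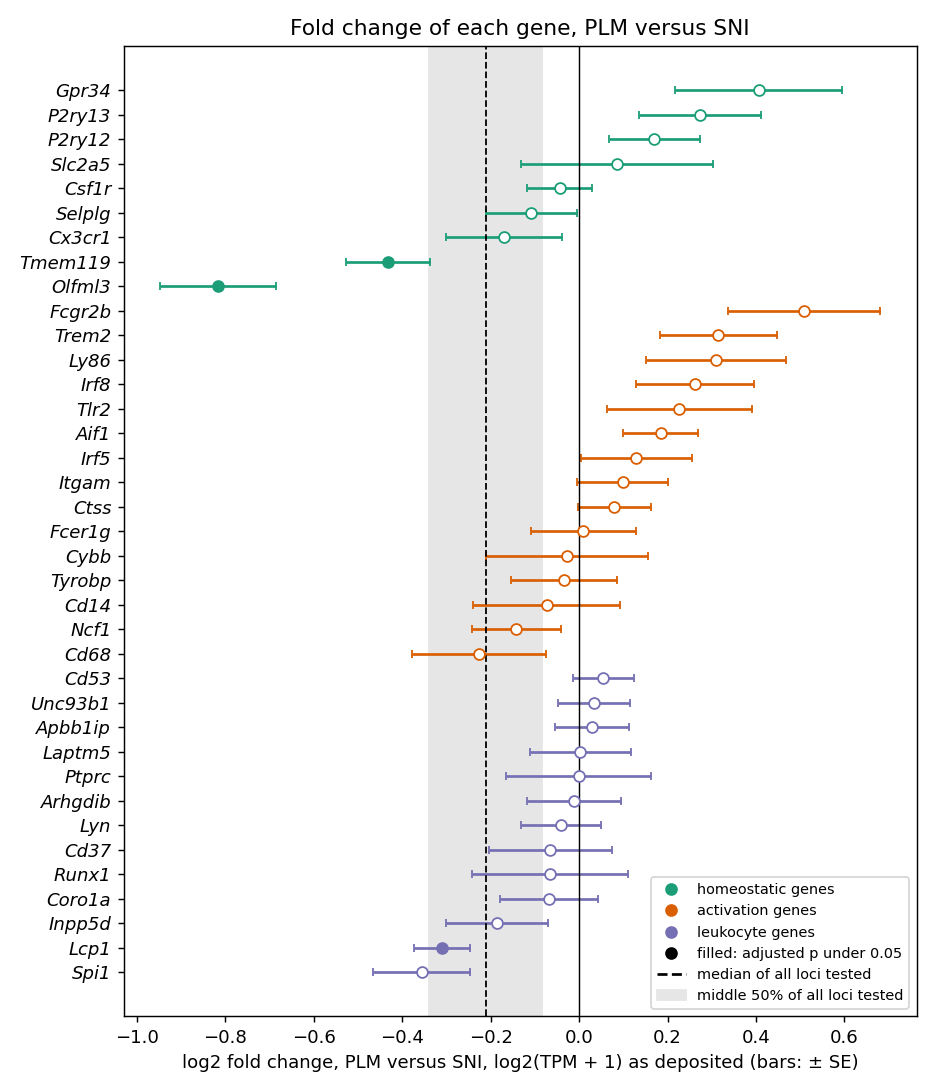
Log2 fold change of PLM against SNI for each of the 37 genes on the log2(TPM + 1) scale as deposited, with bars of ± SE (3 rats in each group), colours for the subgroups, a dashed line at the median of all loci tested (-0.21) and a grey band over their interquartile range. Filled symbols mark an adjusted p under 0.05 (Olfml3, Tmem119 and Lcp1), and 32 of the 37 genes lie to the right of the dashed line.

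On the centred scale limma called 0 of 37 at an adjusted p under 0.05, and 0.814% of all loci. Above 0 were 33 members and below it 4 (Olfml3, Tmem119, Spi1 and Lcp1), with a median of 0.25 against 0.04 for all loci, of which 42.4% were below 0, and 15 members that were below 0 as deposited stood above it. At an unadjusted p under 0.05, 17 members were higher, against 10% of all loci, and 2 lower (Olfml3 and Tmem119), against 6.89%. Every centred PLM value was above every SNI value for 17 members, 45.9% against 14.1% of all loci, and below for 2, 5.41% against 9.73%. Since TPM in a sample sums to a fixed total, which scale is nearer to the amount of RNA in the cord cannot be told apart from these files.

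All 15 activation genes were above 0 on the centred scale, 9 of them at an unadjusted p under 0.05 (10% of all loci were higher at that p), with a median of 0.35. Aif1 was at 0.43 (SE 0.10, limma adjusted p = 0.112), Fcgr2b at 0.76 (SE 0.17, limma adjusted p = 0.110) and Trem2 at 0.56 (SE 0.14, limma adjusted p = 0.143). The transcription factors Irf8 and Irf5 were at 0.51 and 0.38, Ly86 at 0.56, Tlr2 at 0.47, the integrin Itgam (CD11b) at 0.35 and Ctss at 0.33. The remaining activation genes did not pass at an unadjusted p: Fcer1g at 0.26, the oxidase subunit Cybb at 0.22, Tyrobp at 0.21, the lipopolysaccharide co-receptor Cd14 at 0.17, the oxidase subunit Ncf1 at 0.11 and Cd68 at 0.02.

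The homeostatic genes lay on both sides of 0 after centring. There, 4 receptors were higher at an unadjusted p under 0.05 (10% of all loci were higher and 6.89% lower), namely Gpr34 (0.65, SE 0.17, limma adjusted p = 0.149), P2ry13 (0.52, SE 0.12, limma adjusted p = 0.125), P2ry12 (0.42, SE 0.10, limma adjusted p = 0.135) and Csf1r (0.20, SE 0.08, limma adjusted p = 0.259). Olfml3 was at -0.57 (SE 0.12, limma adjusted p = 0.106) and Tmem119 at -0.18 (SE 0.07, limma adjusted p = 0.288). The fructose transporter Slc2a5 (0.33), Selplg (0.14) and Cx3cr1 (0.08) did not pass. In TPM, P2ry12 had 13.55, 13.86 and 13.31 in SNI and 15.89, 13.26 and 17.31 in PLM, and PLM replicate 2 lay just under the lowest SNI value.

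Among the leukocyte genes 4 were higher at an unadjusted p under 0.05 on the centred scale (10% of all loci were), which were the tetraspanin Cd53 (0.30, SE 0.07, limma adjusted p = 0.113), Unc93b1, a carrier of endosomal Toll-like receptors (0.28, SE 0.08), the integrin adaptor Apbb1ip (0.28, SE 0.09) and the kinase Lyn (0.21, SE 0.08). Spi1 (-0.11) and Lcp1 (-0.06) were below 0. The other 7 lay between 0.06 for the phosphatase Inpp5d and 0.25 for Laptm5, with Ptprc at 0.25, Arhgdib at 0.24, the tetraspanin Cd37 at 0.18, Runx1 at 0.18 and the actin regulator Coro1a at 0.18. None of these 7 passed at an unadjusted p.

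The 3 SNI samples lay close together and the PLM samples above them in the centred means. The mean over all 37 genes was 3.44 in each SNI rat and 3.80, 3.63 and 3.64 in PLM, and over the activation genes it was 3.95, 3.76 and 3.74 in PLM. PLM replicate 1 was the highest of the 9 samples for 12 genes and SNI replicate 3 the lowest for 10. As deposited, the activation mean was 3.61, 3.58 and 3.56 in SNI and 3.76, 3.65 and 3.66 in PLM, again without overlap, while the homeostatic mean overlapped (4.01, 3.91 and 3.89 in SNI and 3.86, 3.84 and 3.91 in PLM). The leukocyte mean as deposited was 3.29, 3.29 and 3.25 in SNI and 3.25, 3.14 and 3.21 in PLM, where every PLM value lay below every SNI value, the nearest by less than the rounding. Of the other cell types, the endothelium and red blood cell markers had median centred log2 fold changes of 0.35 and 1.00 in PLM against SNI and the 8 oligodendrocyte markers one of 0.14, with 0 markers of these lists called by limma and 4 of each higher at an unadjusted p under 0.05 (10% of all loci were). Median centred log2 fold changes were -1.11 for astrocyte markers, with 8 of 10 called lower, -0.41 for Schwann cell markers, with 0 called, and -0.37 for meninges and fibroblast markers, with 1 of 6 called lower; their part in the members' values was not tested.

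**Figure D5:**
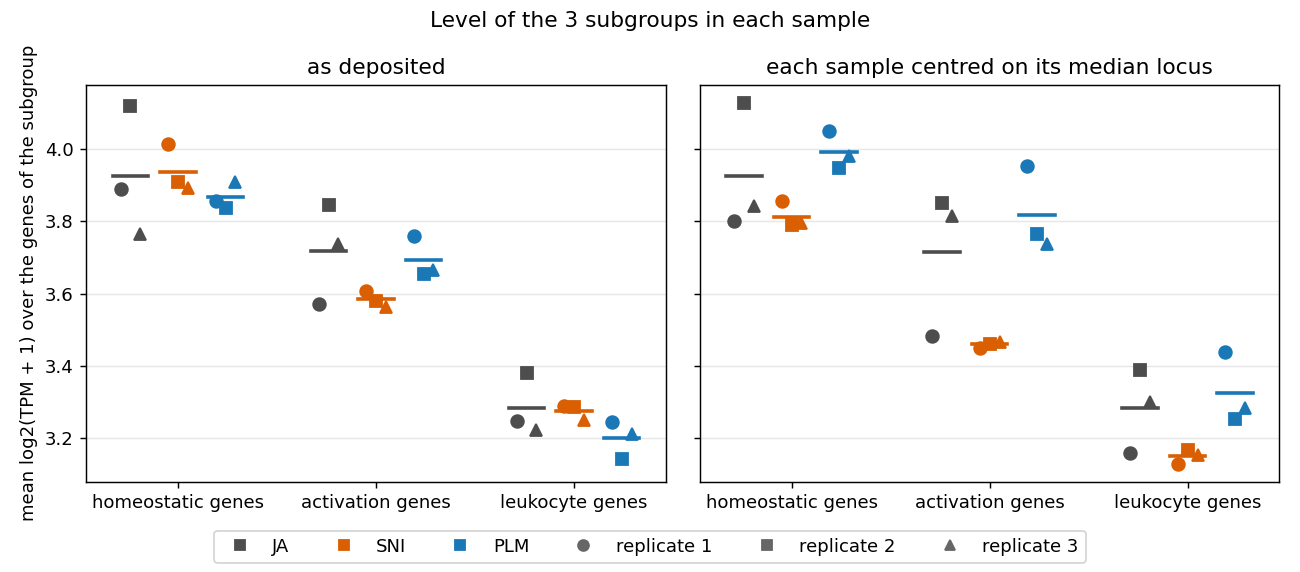
Mean of log2(TPM + 1) over the genes of each subgroup in each of the 9 samples, as deposited and centred on the median locus; the shape marks the replicate and the line the group mean (n = 3). For the activation genes the SNI samples lie between 3.45 and 3.47 when centred, the PLM samples at 3.74 and above, and the JA samples from 3.48 to 3.85.

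Olfml3, Lcp1 and Tmem119 kept their direction when any 1 of the 6 samples was left out, with log2 fold changes as deposited of -0.93 to -0.75 for Olfml3, -0.33 to -0.28 for Lcp1 and -0.50 to -0.34 for Tmem119. With 1 sample fewer, limma gave adjusted p-values of 0.0301 to 0.0766 for Olfml3, 0.0499 to 0.106 for Lcp1 and 0.0515 to 0.102 for Tmem119, so Tmem119 was lost each time, Lcp1 was kept only without SNI replicate 2, and Olfml3 was lost without SNI replicate 3, PLM replicate 1 or PLM replicate 2. Rescaling TPM without the mitochondrial genes gave log2 fold changes of -0.71, -0.17 and -0.30 for Olfml3, Lcp1 and Tmem119 (limma adjusted p = 0.0689, 0.197 and 0.165), and quantile normalization gave -0.57, -0.07 and -0.19 (limma adjusted p = 0.102, 0.602 and 0.303).

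The third comparison sets injured, treated rats against sham rats. No member passed in PLM against JA (limma, 15349 loci, adjusted p under 0.05), where 0.0195% of all loci did. At an unadjusted p under 0.05, 1 member was higher (P2ry12, against 1.3% of all loci) and 3 were lower (Cd68, Olfml3 and Spi1, against 10.5%). P2ry12 was at 10.61, 12.45 and 11.80 TPM in JA and 15.89, 13.26 and 17.31 TPM in PLM (log2 fold change 0.38, SE 0.12, limma adjusted p = 0.370). Cd68 was at 3.83, 2.97 and 4.41 TPM in JA and 2.26, 1.40 and 1.88 TPM in PLM (-0.73, SE 0.18, limma adjusted p = 0.342). Olfml3 was at 12.22, 8.38 and 9.96 TPM in JA and at 5.61, 5.88 and 7.53 TPM in PLM (-0.60, SE 0.16, limma adjusted p = 0.342), and Spi1 at 9.96, 10.02 and 8.35 TPM and at 7.61, 6.87 and 7.47 TPM (-0.33, SE 0.11, limma adjusted p = 0.370). Aif1 overlapped (-0.14, SE 0.17, limma adjusted p = 0.760). So did Fcgr2b (0.71, SE 0.43, limma adjusted p = 0.564) and Laptm5, with 27.49, 35.05 and 37.93 TPM in JA and 28.62, 23.67 and 29.35 TPM in PLM (-0.28, SE 0.15, limma adjusted p = 0.502).

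In this comparison, on the scale as deposited only, P2ry12 alone had every PLM value above every JA value (2% of all loci did). On that scale Cd68, Olfml3, Selplg and Spi1 had every value below (15.7% of all loci did). At the thresholds the study used, 0 of 37 passed, against 0.938% of all loci. The median log2 fold change of the members was -0.06 as deposited, with 12 above and 25 below 0, and that of all loci was -0.10. Of all loci 71.2% were below 0, against 67.6% of the members. Without JA replicate 2 the members' median was 0.03 and without JA replicate 1 it was -0.13. Subgroup medians were -0.10 (homeostatic), -0.03 (activation) and -0.08 (leukocyte). After centring, 25 were above and 12 below 0 (32.4%, against 43.7% of all loci), with a median of 0.07 against 0.03 for all loci. The members' centred median was -0.04 without JA replicate 1 and 0.16 without JA replicate 2. At an adjusted p under 0.05 limma then called 0 members and 0.013% of all loci. At an unadjusted p under 0.05, 2 members were higher (P2ry12 and Apbb1ip, against 5.26% of all loci) and 2 lower (Cd68 and Olfml3, against 4.72%).

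The comparisons share samples, so some members are given here over all 3 groups. Cd68 had group means of 3.74 ± 0.725, 2.31 ± 0.150 and 1.85 ± 0.431 TPM in JA, SNI and PLM, where SNI and PLM overlapped. P2ry12 had 11.6 ± 0.933, 13.6 ± 0.276 and 15.5 ± 2.05 TPM, with JA below both other groups in every sample. Tmem119, Olfml3 and Lcp1 had their highest group mean in SNI, and Aif1, Trem2, Irf8, Tlr2 and Ctss their lowest, with overlap between JA and SNI for each of these 8 except Lcp1 and Tlr2. Unc93b1 varied least, at 7.31 to 8.44 TPM over the 9 samples.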

How the data were processed

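RNA from 9 spinal cord samples, 3 in each of 3 groups, was sequenced, and samples were grouped by the labels' treatment. Per the labels' processing notes and the study's methods, reads were trimmed with fastp 0.19.5, mapped with HISAT2 2.0 and assembled with StringTie 1.3.3b. The notes name GRCh38.p13, a human build, while the identifiers are those of rat Ensembl genes. The authors deposited TPM values, which divide by gene length, sum to the same total in each sample and hold 2 decimals. TPM keeps no depth, so counting errors are unknown, and DESeq2, which the authors used, was not run here.

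Groups were compared in pairs with limma 3.58.1 in R 4.3.3 on log2(TPM + 1), letting the variance follow the mean and using no covariates. Loci averaging under 1 TPM in the 6 samples were left out. The pseudocount of 1 understates the change of low genes. P-values were adjusted by Benjamini-Hochberg over all loci tested and called under 0.05. The labels call the samples biological replicates. The limma calls were checked on simulated data. Centred values are log2(TPM + 1) shifted so that the median over the loci kept is the same in all samples. Alternatives were quantile normalization, TPM rescaled without 13 mitochondrial genes, other filters and a pseudocount of 0.1, loci of one name summed, the study's thresholds, all 9 samples in one fit, a replicate block, and leaving out each sample, the last also with centring, which was added after seeing the data.

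The genes, their subgroups and the other lists were chosen with earlier results of these data known. All members were accounted for. Full statistics were given for Aif1, for members with an adjusted p under 0.05 (at most 4 with the smallest p in each subgroup and comparison) and, where a subgroup had none, for the 2 with the smallest p. Of the other microglia lists, genes with an adjusted p under 0.05 and no overlap were named, at most 5 per list, with Gpnmb as a sixth named after its value was seen. Markers of other cell types were given as counts and sums. Further members were given by value after these were seen. Promoters are from RefSeq, build GRCr8. No protein sequences were used here.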

Additional observations from a re-analysis of the deposited data

How the results depend on the processing

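For SNI against JA and for PLM against JA, 0 members were called in either direction by limma under each alternative run. In PLM against SNI the count of members lower was 3, and 0 were called higher under each alternative. The lower count was 0 with median-centred values, quantile normalization, TPM rescaled without mitochondrial genes and the study's thresholds, and 1 (Olfml3) with all 9 samples in one fit. It was 2 with no filter and 3 with the stricter filter, the pseudocount of 0.1 and loci of one name summed. Leaving out one sample gave 0 to 2, and 0 with centring. All loci lower numbered 2110 as reported, 106 centred, 132 with quantile normalization, 267 rescaled, 478 with all 9 samples, 1237 with no filter, 2594 with the stricter filter, 2177 with the pseudocount of 0.1, 2211 with loci summed, 220 at the study's thresholds and 264 to 1456 with one sample left out.

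The median log2 fold change of the members in SNI against JA was -0.07 as deposited and -0.19 centred, with -0.13 to -7.85e-05 as each sample was left out and -0.30, -0.12 and -0.19 when also centred and without JA replicates 1, 2 and 3, and -0.18 to -0.15 without an SNI sample. In PLM against SNI it was -0.0011 as deposited, 0.25 centred, 0.21 with quantile normalization and 0.13 rescaled, with -0.0046 to 0.054 as each sample was left out. When also centred it was 0.24, 0.26 and 0.28 without SNI replicates 1, 2 and 3 and 0.21, 0.31 and 0.27 without PLM replicates 1, 2 and 3. In PLM against JA it was -0.06 as deposited and 0.068 centred, with -0.13 to 0.03 as each sample was left out. When also centred it was -0.04 without JA replicate 1, 0.16 without JA replicate 2 and 0.087 without JA replicate 3, and 0.0029, 0.098 and 0.084 without PLM replicates 1, 2 and 3. Leaving out JA replicate 2 moved the medians of SNI against JA and of PLM against JA upward on both scales.

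Replicate numbers did not pair the samples. Over 9 same-numbered pairs the correlation of deviations ran from -0.05 to 0.13, and in 7 of 18 matches of a sample with another group it correlated best with its own number. With the replicate block 0 members and 151 loci were lower in PLM against SNI, and with the replicate block and centring 0 members; the medians under that block were -0.19, 0.25 and 0.068. Depth is unknown, so members near 1 TPM, such as Ptprc and Runx1, carry an unknown counting error.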

Other observations

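Genes of the disease-associated microglia state, a program of lipid handling and lysosomal genes, were lower in PLM than in SNI for 6 of 12 tested (50%, against 13.6% of all loci), with a median log2 fold change of -0.32 against -0.21 for all loci. Apoe, the lipid carrier, had 3831, 3831 and 3662 TPM in SNI and 2010, 1663 and 1594 TPM in PLM (log2 fold change -1.11, limma adjusted p = 0.00477). The receptor Axl had 10.45, 11.83 and 10.56 TPM in SNI and 5.57, 5.20 and 6.51 TPM in PLM (-0.82, limma adjusted p = 0.00999). The proteases Ctsb (-0.30, limma adjusted p = 0.0216) and Ctsd (-0.34, limma adjusted p = 0.0366) and the secreted phosphoprotein Spp1 (-0.41, limma adjusted p = 0.0433) fell too, again with no overlap between the groups. The sixth was Gpnmb, a lysosomal glycoprotein. After centring 1 of the 12 passed, which was Apoe (-0.86, limma adjusted p = 0.0494), where 0.814% of all loci passed in either direction. Apoe and Axl are also expressed by astrocytes, and 10 of 10 astrocyte markers were lower in PLM as deposited and 8 of 10 after centring, against 13.6% and 0.685% of all loci; their part in these values was not tested. Clec7a, Cst7 and Itgax averaged under 1 TPM. Neuron markers had a median log2 fold change of -0.19 as deposited and 0.05 after centring, with 0 of 10 called each time. In bulk tissue the cells that expressed the 6 lower genes cannot be told apart.

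Of 10 tested genes of microglia ligands, cues and receptors of such signals, 3 were lower in PLM (30%, against 13.6% of all loci). Cx3cl1, the neuronal fractalkine that binds Cx3cr1, had 48.79, 34.13 and 40.45 TPM in SNI and 26.71, 28.82 and 27.11 TPM in PLM (-0.55, limma adjusted p = 0.0418). Csf1, a ligand of Csf1r, had 20.27, 21.25 and 20.67 TPM in SNI and 13.44, 12.66 and 17.72 TPM in PLM (-0.49, limma adjusted p = 0.0492). Sirpa, the receptor for Cd47, had 33.98, 31.14 and 31.91 TPM in SNI and 21.62, 20.73 and 23.22 TPM in PLM (-0.55, limma adjusted p = 0.0116). After centring 0 of the 10 passed in limma, with 1 higher and 2 lower at an unadjusted p under 0.05 (10% and 6.89% of all loci).

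Of 24 other microglia genes tested 1 was lower (13.6% of all loci were), the transcription factor Sall1 (-0.32, limma adjusted p = 0.0349), with 15.78, 16.77 and 14.99 TPM in SNI and 12.71, 12.41 and 12.21 TPM in PLM. On the centred scale 22 of the 24 were above 0, with a median of 0.23, and 8 were higher at an unadjusted p under 0.05 (10% of all loci were) while limma called 0. Of 9 pain effectors of microglia 1 was lower (11.1%, against 13.6% of all loci), Nfkb1 (-0.42, limma adjusted p = 0.0481), and after centring limma called 0, with 1 higher and 0 lower at an unadjusted p under 0.05 and 7 of 9 above 0 (median 0.26). The cytokine genes Il1b, Il6 and Tnf averaged under 1 TPM and were not tested. Of 5 proliferation genes 0 passed in limma, and 3 were lower at an unadjusted p under 0.05 as deposited, where 35.8% of all loci were, and 0 after centring. In SNI against JA limma called 0 genes of these 5 lists, with 3 higher and 2 lower at an unadjusted p under 0.05 as deposited (6.11% and 0.99% of all loci), and 0 higher and 5 lower after centring (1.7% and 3.13% of all loci).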
